A study of Homo sapiens with 9 samples.

Results

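The proteasome genes of a breast cancer cell line were examined after treatment with rimonabant, a small molecule that blocks the cannabinoid receptor CB1, or with TXX-1-10, a chemical modification of rimonabant that goes by a code name. Members were the protein-coding genes whose symbol begins with PSMA to PSMG followed by a number, and 47 of the 27615 genes in the longest list met this rule. Of these, 46 encode subunits, activators, an inhibitor or assembly factors of the proteasome. The other one, PSMC3IP, only shares the letters of PSMC3: its product works in meiotic recombination, and it was kept apart. The line was MDA-MB-231, an established line of triple-negative breast cancer, and its RNA was sequenced in 9 libraries: 3 from cells given the vehicle dimethyl sulfoxide (DMSO), 3 from cells given rimonabant and 3 from cells given TXX-1-10. All cells were of this 1 line, and the labels give neither the dose nor the duration for the sequenced cells, so the compounds were compared as applied and not at doses known to match. Nothing in the labels says that replicates came from separate cultures, so p-values measure only the spread between these libraries.

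The proteasome is the barrel-shaped protease that degrades proteins tagged with ubiquitin. Its core particle stacks rings of alpha (PSMA) and beta (PSMB) subunits and holds the cutting sites inside. The regulatory particle caps the barrel: its base carries the ATPases (PSMC) that unfold the substrate, and its lid (most PSMD genes) removes the ubiquitin chain. Separate activators (PSME) can open the core in place of the regulatory particle, and dedicated chaperones (PSMG, POMP, PSMD5, PSMD9, PSMD10) assemble the parts and leave. The transcription factor NFE2L1 is known to raise proteasome genes together when proteasome activity is short, through antioxidant response elements in their promoters. Breast cancer cells, like other cells with high protein turnover, rely on this machinery.

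Because members that move together can share promoter elements, RefSeq promoter windows (GRCh38.p14) were read for the core of the antioxidant response element, TGACNNNGC, on both strands of the 250 bases before each gene's start. Windows were found for 40 of the 46 members, and 13 of these (32.5%) held the core, against 13.2% of 27305 genes with a window. Some genes had more than 1 window, and such a gene counted once if any of its windows held the match. Of the 19 members with a window that were later found lower under TXX-1-10, 6 held it, as did 2 of the 9 that did not pass. Bases 250 to 71 before the start, 5′ to 3′, are shown for 3 members that fell and carry the core (PSMB3, PSMD12, PSMD5), for 1 that carries it and did not pass (PSME1), and for 2 that fell without it (PSMD1, PSMC3). Capitals mark a match to the core or, in PSMC3, to the CCAAT box.
PSMB3 (chr17:38752491-38752670, plus strand): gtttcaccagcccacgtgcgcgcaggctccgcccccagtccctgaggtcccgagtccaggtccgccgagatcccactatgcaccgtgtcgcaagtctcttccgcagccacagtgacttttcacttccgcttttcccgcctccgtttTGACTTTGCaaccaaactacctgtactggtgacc
PSMD12 (chr17:67366648-67366827, minus strand): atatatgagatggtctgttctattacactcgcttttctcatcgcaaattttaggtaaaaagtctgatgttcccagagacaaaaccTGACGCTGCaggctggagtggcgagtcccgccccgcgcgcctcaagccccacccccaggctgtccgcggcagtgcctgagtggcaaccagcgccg
PSMD5 (chr9:120842993-120843172, minus strand): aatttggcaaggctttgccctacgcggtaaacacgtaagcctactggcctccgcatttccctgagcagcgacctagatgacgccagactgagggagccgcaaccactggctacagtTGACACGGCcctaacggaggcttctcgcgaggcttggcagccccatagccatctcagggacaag
PSME1 (chr14:24135944-24136123, plus strand): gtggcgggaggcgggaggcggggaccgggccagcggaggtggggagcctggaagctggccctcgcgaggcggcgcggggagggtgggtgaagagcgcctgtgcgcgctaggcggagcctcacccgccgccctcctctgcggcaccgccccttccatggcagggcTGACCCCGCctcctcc
PSMD1 (chr2:231056617-231056796, plus strand): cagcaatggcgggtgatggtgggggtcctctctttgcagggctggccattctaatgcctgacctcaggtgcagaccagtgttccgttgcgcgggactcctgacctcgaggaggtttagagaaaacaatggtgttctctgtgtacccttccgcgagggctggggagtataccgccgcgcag
PSMC3 (chr11:47426510-47426689, minus strand): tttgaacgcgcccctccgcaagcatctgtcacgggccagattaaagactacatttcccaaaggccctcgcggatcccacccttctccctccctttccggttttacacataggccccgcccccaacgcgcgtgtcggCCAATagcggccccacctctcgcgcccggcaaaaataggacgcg

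The core lies 104 to 96 bases before the start in PSMB3, 165 to 157 in PSMD12, 134 to 126 in PSMD5 and 86 to 78 in PSME1. The PSMD5 stretch also overlaps exons of CUTALP, which is annotated on the opposite strand. A CCAAT box, the element bound by NF-Y, was in 18 of the 40 members with a window (45%) and in 37% of all genes with a window. The core of the interferon-stimulated response element was in 5 (12.5%) against 3.71%. The C/EBP-ATF core, TTGCATCA, was in 0 of 40 against 0.967%. These matches are letters in a window, not sites shown to be bound, and each share is a description.

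The FPKM values are counts scaled to gene length and to a library total, which lay between 17078370 and 19277808. In vehicle replicates 1 and 3 this total was smaller than the sum of the deposited counts (17492638 and 17383157). In all other libraries it was larger. In TXX-1-10 it was 19277808, 18394759 and 18405221, against sums of 17586399, 16836181 and 17493322. It is thus a scaling total and not the number of counts, and how it was set is not given in the sources used here. The deposited lists ran from high to low counts and ended at different genes, after 4237 lines in rimonabant replicate 1 and up to 27615 in rimonabant replicate 3. A gene without a line was therefore treated as not measured and not as 0. Of the 46 proteasome genes, 33 were listed in all 9 libraries and 9 more in the 8 other than rimonabant replicate 1. The remaining 4 (PSMA2, PSMA6, PSMB9, PSMB10) were listed in 7 libraries and not tested. All 7 marker genes of the line were listed in every library at 27.4 to 329 FPKM, while listed leukocyte, fibroblast and endothelial markers stayed at or under 0.798 FPKM. Of the receptor genes that a triple-negative line lacks, ESR1 and PGR were listed in 4 libraries each, at or under 0.046 FPKM. The third, ERBB2, was listed in all 9 libraries at 7.0 to 9.52 FPKM.

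Rimonabant replicate 1 and TXX-1-10 replicate 3 stood apart from the other libraries of their groups. In both, the log2 ratio of a gene to the other 2 replicates fell as gene length rose, with Spearman correlations across the 4236 tested genes of -0.694 and -0.692, against -0.0252 to 0.0276 in the vehicle libraries (genes are not independent replicates). The other rimonabant and TXX-1-10 libraries gave 0.477 to 0.667, each measured against a mean that held 1 of these 2. Within the 33 proteasome genes, which are shorter (median exon length 4490 bases) than all tested genes (5771 bases), the correlations in rimonabant replicate 1 and TXX-1-10 replicate 3 were -0.627 and -0.717. In each of these 2 libraries 30 of the 33 members lay above both other replicates of the group, beside 53% and 54.5% of all genes. The members' median log2 ratio to them was 0.20 in both, beside 0.04 and 0.05 for all genes. The counts of members were also taken with both libraries left out and with a length correction.

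**Figure D1:**
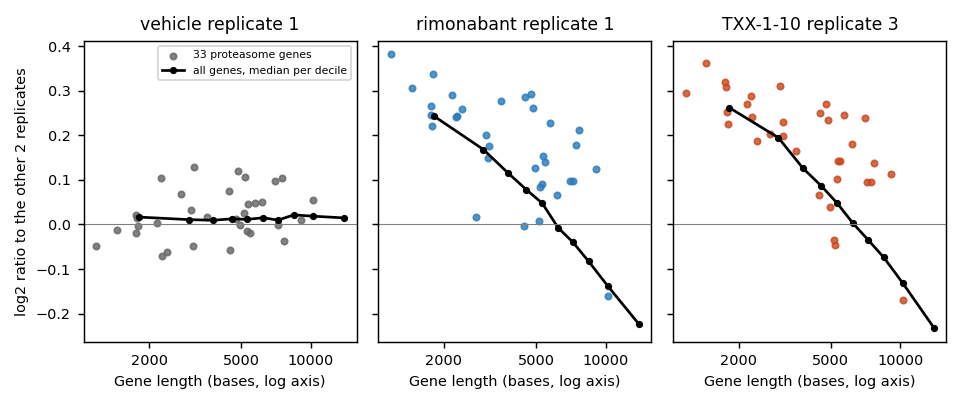
Log2 ratio of each of 33 proteasome genes (points) to the mean of the other 2 replicates of its group, against gene length in bases on a log axis, in vehicle replicate 1, rimonabant replicate 1 and TXX-1-10 replicate 3. The black line joins the medians of all 4236 tested genes per length decile: it is flat in the vehicle library and slopes down in both others.

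In vehicle-treated cells the most abundant members were core and base subunits, but levels within each part spread widely. The base ATPase PSMC6 stood at a mean of 14.4 FPKM, below the lid subunit PSMD8 at 54.4. On the FPKM scale the highest mean levels were those of PSMA7, an alpha subunit, at 222, and PSMD2, the large scaffold of the base, at 177. The lowest levels were listed for alpha subunits. PSMA2 and PSMA6, obligate alpha subunits, were listed at 1.08 and 0.856 FPKM, with 34.6% and 14.1% of their exon bases also assigned to another gene. PSMA1 stood at 9.02 FPKM with 24.7% of its exons shared. Scaled to the length of the principal transcript instead of all exons, PSMA2 and PSMA6 were still the lowest of the 42 members with such a length. The shared stretches of PSMA2 and PSMA6 were 1848 and 919 bases, beside principal transcripts of 1487 and 1029 bases. How much of the principal transcript was shared was not measured. Reads in shared stretches could not be assigned from these files, so the levels of these 3 alpha subunits are uncertain. The same holds for PSMC1 (75.8% of its exons shared with NRDE2), PSMB10 (34.8%), PSMD7 (30.7%), PSMD9 (22.6%), PSMB8 (20.6%), PSMC5 (19.5%), PSMG2 (16.7%), PSMG4 (15%) and, to a lesser degree, PSMD1 (10.8%).

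TXX-1-10 was followed by lower levels of most tested proteasome genes, in every structural part of the complex. Of the 33 members listed in all libraries, 21 were lower than in vehicle at an adjusted p under 0.05 (edgeR quasi-likelihood test, Benjamini-Hochberg over all 4236 genes), 0 were higher and 12 did not pass. Among all genes tested, 43.8% were lower and 30.5% higher. The FPKM values of TXX-1-10 and vehicle did not overlap in 21 members that were lower and 1 that was higher. Of all 4236 genes, 1961 lay apart and lower and 1371 apart and higher. The members' median log2 fold change was -0.28, beside -0.09 for all genes, and single values ran from -0.80 to 0.08. None of the 33 reached the study's fold call of at least 1 on the log2 scale, which 7.6% of all genes met downward and 4.2% upward. Because each library pools many cells, a shift in all cells and a larger one in some of them cannot be told apart.

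The summed counts of the 33 genes show the same data per library. They made up 0.622%, 0.618% and 0.615% of the vehicle libraries and 0.691%, 0.603% and 0.612% of the rimonabant libraries. In the TXX-1-10 libraries they made up 0.494%, 0.482% and 0.555%. Thus the 3 TXX-1-10 libraries lay under all 6 others, the third being the length-dependent library, and the highest of the 9 was the other length-dependent library, rimonabant replicate 1.

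**Figure D2:**
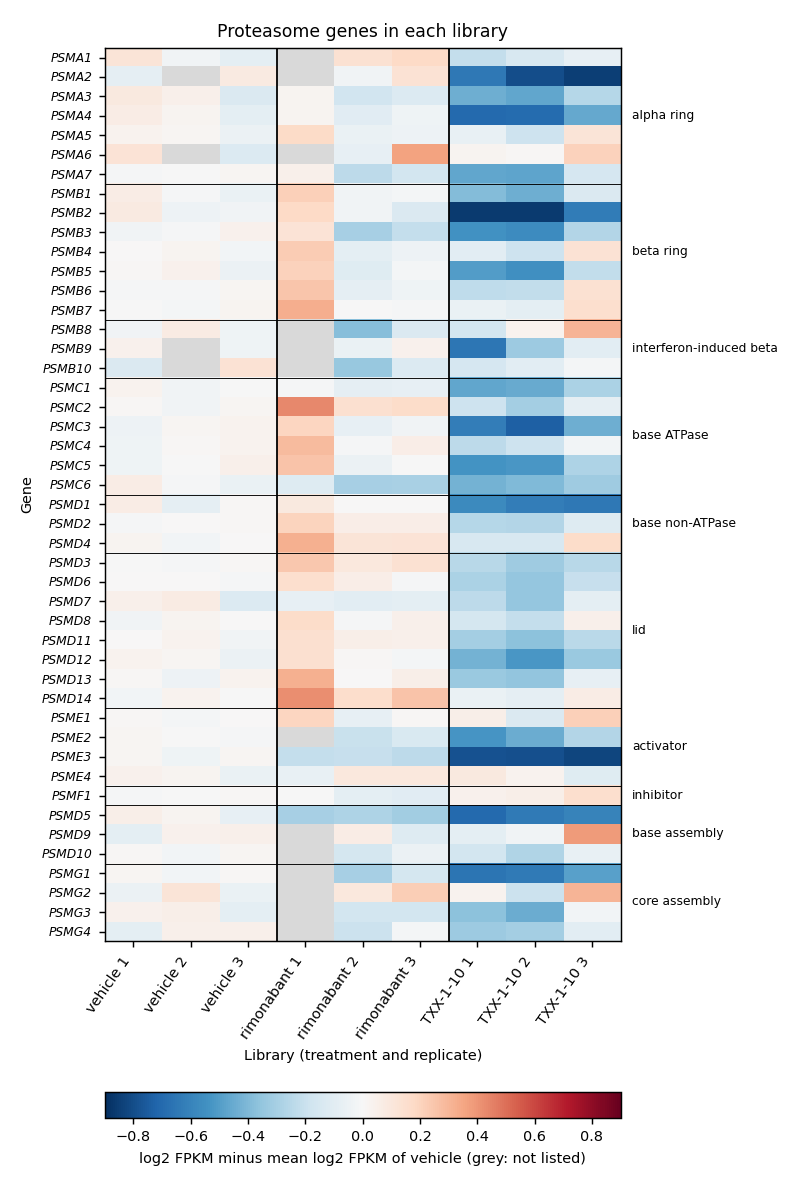
Log2 FPKM of 46 proteasome genes (rows, grouped by part of the complex) in the 9 libraries (columns), each minus the gene's mean log2 FPKM in vehicle. Blue is lower, red is higher and grey marks a gene not listed. The TXX-1-10 columns are mostly blue, less so in replicate 3, and rimonabant replicate 1 is mostly red.

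Scaling moved the size of the median difference and not its sign. Relative to the deposited totals, TMM factors were 1.02 to 1.03 in vehicle and 0.949 to 0.971 in TXX-1-10. The deposited totals thus set TXX-1-10 values lower against vehicle than TMM normalization does. With TMM normalization the median of all genes moved from -0.09 to 0.00 and that of the members from -0.28 to -0.18. Then 18 members were lower and 1, PSMF1, was higher, beside 37.1% and 37% of all genes. With the length correction 20 were lower and 4 higher, the 4 being PSMB4, PSMB7, PSME1 and PSMF1, beside 40.1% and 39.2% of all genes. With both length-dependent libraries left out, 28 of 33 were lower and 0 higher, at a median of -0.34, and of all genes 50.4% were then lower and 34.4% higher. Of the 21 members that fell, 18 passed under each of 23 alternative settings. The other 3 were PSMD2, PSMD7 and PSMD13.

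In the core particle 7 of 11 tested subunits were lower and 0 higher, beside 43.8% and 30.5% of all genes. In the alpha ring 3 of 4 fell, over a range of -0.61 to -0.04. The alpha subunit PSMA4 (ENSG00000041357, chr15:78540405-78552419 of GRCh38, plus strand) stood at 19.9, 19.3 and 17.9 FPKM in vehicle, at 19.4, 17.7 and 18.5 in rimonabant and at 11.7, 11.8 and 13.9 in TXX-1-10. All TXX-1-10 libraries lay below all others. The log2 fold change of PSMA4 against vehicle was -0.61 ± 0.07 (SE) with an edgeR adjusted p of 2.89e-05. A lack of overlap between the compared groups was a condition for naming PSMA4, PSMB2, PSMC3 and PSMD1, so it adds no support. The same condition held for naming PSMC6, PSMC2 and PSMD14 under rimonabant. PSMA5, another alpha subunit, was at 27.5 to 29.1 FPKM in vehicle and 25.0 to 30.9 in TXX-1-10 and did not pass (-0.04 ± 0.09, adjusted p 0.687).

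The beta subunit PSMB2 (ENSG00000126067, chr1:35599544-35641844, minus strand), a structural ring member with no cutting site, fell most in the core. It stood at 33.1, 30.3 and 30.6 FPKM in vehicle, 35.5, 30.7 and 28.6 in rimonabant and 17.2, 17.2 and 20.3 in TXX-1-10. The TXX-1-10 libraries did not overlap with either other group, and the log2 fold change was -0.78 ± 0.09 (adjusted p 2.24e-05).

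The 3 constitutive cutting subunits did not move alike. PSMB5, the chymotrypsin-like site and the target of bortezomib, was at 71.7, 72.8 and 68.6 FPKM in vehicle and at 50.1, 48.4 and 60.9 in TXX-1-10. These groups did not overlap, and PSMB5 fell by 0.42 on the log2 scale (SE 0.10, adjusted p 0.00306). PSMB6, the caspase-like site, was at 118, 118 and 120 FPKM in vehicle and at 101, 102 and 131 in TXX-1-10, and the groups overlapped. Its log2 fold change was -0.10 ± 0.11 (adjusted p 0.446) with a 95% interval of -0.34 to 0.15. PSMB7, the trypsin-like site, was at 104, 103 and 106 FPKM in vehicle and at 100, 98.0 and 116 in TXX-1-10. Its log2 fold change was 0.00 ± 0.09 (adjusted p 0.971, interval -0.21 to 0.22). In both, the highest TXX-1-10 value was that of replicate 3, and without that library PSMB6 was lower (-0.23, adjusted p 0.0318). PSMB4, a structural beta subunit, was at 114, 116 and 112 FPKM in vehicle and 107, 99.99 and 125 in TXX-1-10. It did not pass (-0.04 ± 0.10, adjusted p 0.688) and was the one member whose sign turned with a call, to 0.10 (adjusted p 0.0304) under the length correction.

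Interferon-induced subunits replace the constitutive sites in the immunoproteasome, which favours peptides for antigen presentation. Of the 3, only PSMB8 could be tested, in the fit of 9369 genes over the 8 libraries without rimonabant replicate 1. It was at 9.95, 10.7 and 9.86 FPKM in vehicle and 9.07, 10.4 and 12.5 in TXX-1-10, and the groups overlapped (log2 fold change 0.07 ± 0.11, adjusted p 0.589). PSMB9 was listed at 2.36 and 2.25 FPKM in 2 vehicle libraries and at 1.47, 1.84 and 2.16 in TXX-1-10. PSMB10 was listed at 5.21 and 6.24 FPKM in 2 vehicle libraries and at 5.12, 5.34 and 5.63 in TXX-1-10, and 34.8% of its exons are shared with other genes.

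In the regulatory particle 12 of 17 tested subunits were lower and 0 higher, beside 43.8% and 30.5% of all genes. With the deposited totals all 17 values were below 0, as were 2443 of all 4236 genes. That sign depended on scaling: of all 33 members 29 were below 0 with these totals. Under TMM normalization 24 were, and with the length correction 23. The counts were 4 of 6 base ATPases, 2 of 3 other base subunits and 6 of 8 lid subunits. PSMC3 (ENSG00000165916, chr11:47418769-47426473, minus strand), an ATPase of the ring that threads substrates into the core, was at 86.0, 89.9 and 90.8 FPKM in vehicle, 101, 84.6 and 86.8 in rimonabant and 57.6, 53.3 and 65.5 in TXX-1-10. It fell by 0.60 against vehicle (SE 0.09, adjusted p 0.000116), and no TXX-1-10 library reached the other groups.

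PSMD1 (ENSG00000173692, chr2:231056864-231172827, plus strand), a large scaffold of the base, was at 30.7, 27.6 and 29.5 FPKM in vehicle, 31.1, 29.3 and 29.3 in rimonabant and 19.6, 19.0 and 18.7 in TXX-1-10. Replicate 3 was here the lowest of the TXX-1-10 libraries, and the log2 fold change was -0.61 ± 0.05 (adjusted p 2.29e-06). The deubiquitinase of the lid, PSMD14, was at 14.4, 14.9 and 14.5 FPKM in vehicle and 14.0, 13.8 and 15.3 in TXX-1-10, with overlap (-0.02 ± 0.07, adjusted p 0.787). The ubiquitin receptor PSMD4 was at 54.0 to 55.8 FPKM in vehicle and 49.6 to 61.6 in TXX-1-10 (-0.03 ± 0.09, adjusted p 0.739). The lid subunit PSMD8 was at 53.2, 55.4 and 54.5 FPKM in vehicle, 61.0, 53.9 and 56.2 in rimonabant and 48.6, 46.9 and 56.0 in TXX-1-10 and passed in no comparison (-0.11 ± 0.07 against vehicle, adjusted p 0.2). With the deposited totals, the values nearest 0 in the regulatory particle were those of PSMD4 and PSMD14. In both genes the highest TXX-1-10 value was that of the length-dependent replicate 3. Replicates 1 and 2 lay below all vehicle libraries.

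**Figure D3:**
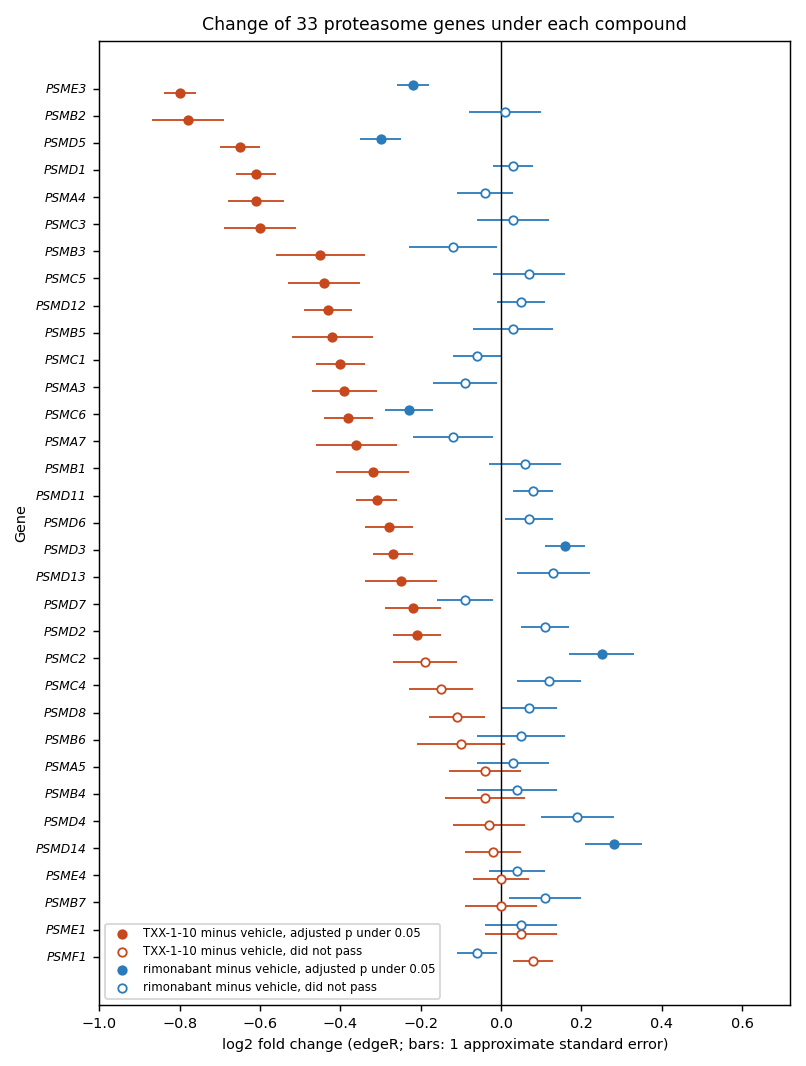
Log2 fold changes of the 33 proteasome genes under TXX-1-10 (orange) and rimonabant (blue), both against the same 3 vehicle libraries, with bars of 1 approximate standard error, sorted by the TXX-1-10 value. Filled points had an adjusted p under 0.05; with the deposited library totals, 21 orange points are filled, all below 0, and 6 blue points, 3 on each side.

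The activators split. PSME3 (ENSG00000131467, chr17:42824385-42843758, plus strand), the nuclear activator that supports ubiquitin-independent degradation, had the most negative log2 fold change of the 33. It was at 52.6, 50.6 and 52.7 FPKM in vehicle, 44.8, 45.0 and 44.2 in rimonabant and 30.1, 30.0 and 29.4 in TXX-1-10. No 2 groups overlapped, and the fall under TXX-1-10 was -0.80 ± 0.04 (adjusted p 3.88e-08). PSME1 and PSME2 form the interferon-induced activator ring together. PSME1 was at 30.3, 29.8 and 30.2 FPKM in vehicle and 31.2, 27.5 and 34.9 in TXX-1-10 and did not pass (0.05 ± 0.09, adjusted p 0.626). PSME2, tested in 8 libraries, was at 15.4, 15.2 and 15.1 FPKM in vehicle and 10.5, 11.2 and 12.7 in TXX-1-10 and was lower (-0.41 ± 0.07, adjusted p 0.000186). PSME4, a large single-chain activator of nuclear proteasomes, was at 12.8, 12.7 and 11.9 FPKM in vehicle and 13.2, 12.7 and 11.5 in TXX-1-10 (0.00 ± 0.07, adjusted p 0.966). PSMF1, the inhibitor of the core, was at 22.7, 22.9 and 23.1 FPKM in vehicle and 23.5, 23.8 and 25.4 in TXX-1-10. Its groups did not overlap, yet the test did not pass with the deposited totals (0.08 ± 0.05, adjusted p 0.138) and did under TMM normalization (0.18, adjusted p 0.00265).

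**Figure D4:**
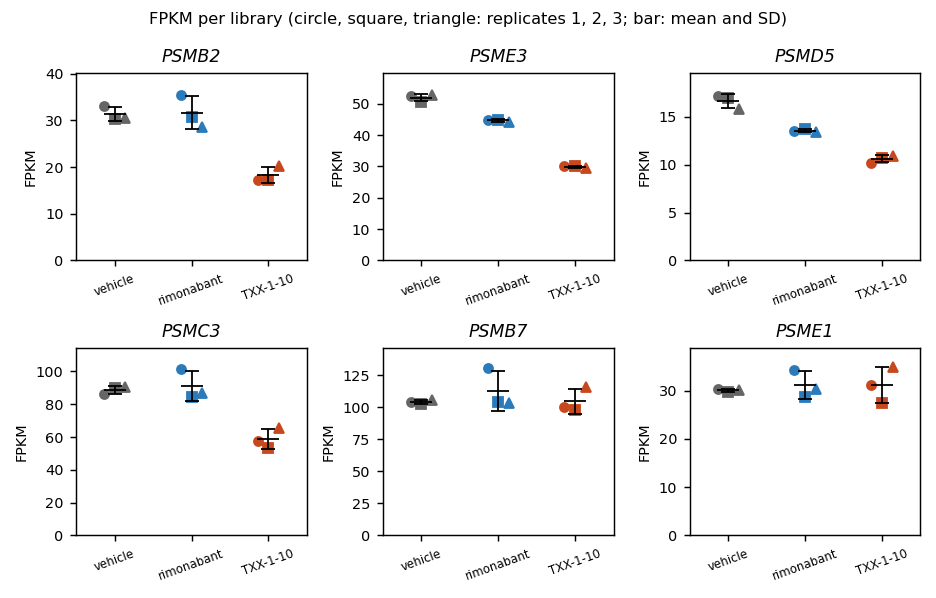
FPKM per library of PSMB2, PSME3, PSMD5, PSMC3, PSMB7 and PSME1, from 0, with circles, squares and triangles for replicates 1, 2 and 3 and a bar for the mean and SD of 3 libraries. In the first 4 genes every TXX-1-10 library lies below every vehicle and rimonabant library, and in PSMB7 and PSME1 the groups overlap.

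Among the assembly factors, PSMD5 and PSMG1 fell most. PSMD5 (ENSG00000095261, chr9:120815496-120842984, minus strand), a chaperone of the base, was at 17.2, 16.9 and 15.8 FPKM in vehicle, 13.5, 13.7 and 13.4 in rimonabant and 10.2, 10.7 and 10.9 in TXX-1-10. The 3 groups lay in 3 separate steps, and the log2 fold change under TXX-1-10 was -0.65 ± 0.05 (adjusted p 1.53e-06). PSMG1, which pairs with PSMG2 to build the alpha ring, was at 20.7, 20.0 and 20.5 FPKM in vehicle, 16.6 and 18.2 in 2 rimonabant libraries and 13.0, 13.1 and 14.5 in TXX-1-10. It was lower in the fit of 8 libraries (-0.59 ± 0.07, adjusted p 4.45e-06).

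Its partner PSMG2 was at 14.2, 16.0 and 14.1 FPKM in vehicle and 15.1, 12.9 and 18.3 in TXX-1-10, and the groups overlapped (0.06 ± 0.11, adjusted p 0.627). The second chaperone pair was lower: PSMG3 (-0.27 ± 0.10, adjusted p 0.0233) ranged from 19.3 to 21.3 FPKM in vehicle and from 15.1 to 20.1 in TXX-1-10. PSMG4 (-0.24 ± 0.09, adjusted p 0.0243) ranged from 2.39 to 2.63 FPKM in vehicle and from 2.03 to 2.38 in TXX-1-10. POMP, which matures the core and carries no PSM symbol, was at 92.0, 91.9 and 92.6 FPKM in vehicle and 68.3, 72.1 and 86.6 in TXX-1-10 (-0.28 ± 0.09, adjusted p 0.0161). The base chaperone PSMD10 was lower at 15.0 to 17.2 FPKM against 17.7 to 18.3 (-0.17 ± 0.07, adjusted p 0.037), and PSMD9 did not pass at 1.43 to 1.98 against 1.43 to 1.57 (0.10 ± 0.12, adjusted p 0.472). The calls of PSMD10, PSMG3, PSMG4 and POMP depended on the setting. PSMD10 did not pass under TMM normalization (-0.11, adjusted p 0.107), under the length correction (-0.08, adjusted p 0.173) or without any one of the vehicle libraries, TXX-1-10 replicate 1 or TXX-1-10 replicate 2 (-0.18 to -0.12, adjusted p 0.0622 to 0.154). PSMG3 did not pass without vehicle replicate 1 or 2 or TXX-1-10 replicate 1 or 2 (-0.25 to -0.19, adjusted p 0.0764 to 0.0888). PSMG4 did not pass under TMM normalization (adjusted p 0.0571), under the length correction (adjusted p 0.0653) or without vehicle replicate 2 or 3 or TXX-1-10 replicate 1 or 2 (-0.22 to -0.20, adjusted p 0.0709 to 0.0915). POMP did not pass under TMM normalization (-0.19, adjusted p 0.0624), with DESeq2 size factors (-0.19, adjusted p 0.0642), without TXX-1-10 replicate 1 (-0.22, adjusted p 0.0657) or without TXX-1-10 replicate 2 (-0.25, adjusted p 0.0541). Over the 42 members tested in 8 libraries, 28 were lower and 0 higher at a median of -0.26, where 40.6% of 9369 genes were lower and 34.7% higher.

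Rimonabant was followed by few and small differences. Of the 33 genes, 3 were lower and 3 higher than in vehicle, and the median log2 fold change was 0.04 (all genes -0.02). Among all genes 25.2% were lower and 23.7% higher, and of the members 9.09% passed in each direction. The sign of the median rests on rimonabant replicate 1: without it the median was -0.03, with 21 of 33 values below 0 in place of 10. Without both length-dependent libraries 7 members were lower and 4 higher, beside 38% and 30.7% of all genes, and with the length correction 5 were lower and 6 higher, beside 29% and 30.8%. The cutting subunits had overlapping groups: in rimonabant PSMB5 was at 81.9, 65.9 and 70.2 FPKM, PSMB6 at 141, 113 and 116 and PSMB7 at 131, 104 and 103, each highest in replicate 1. In the core particle 0 of 11 subunits passed with edgeR's test over all 9 libraries, and over the 8 libraries 1, PSMB3, was lower. In the fit of 8 libraries 5 of 42 members were lower and 1 higher, where 22.8% and 23.7% of all genes were.

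The 3 lower genes were PSME3, PSMD5 and PSMC6. PSME3 fell by 0.22 (SE 0.04, adjusted p 0.00132) and PSMD5 by 0.30 (SE 0.05, adjusted p 0.0011), with the library values given above. The ATPase PSMC6 was at 15.1, 14.3 and 13.9 FPKM in vehicle, 13.3, 11.7 and 11.8 in rimonabant and 10.7, 10.9 and 11.6 in TXX-1-10. Its log2 fold change under rimonabant was -0.23 ± 0.06 (adjusted p 0.0121), and the 2 groups did not overlap. The call was lost without vehicle replicate 1 (-0.20, adjusted p 0.0526) and without rimonabant replicate 3 (-0.20, adjusted p 0.0532). Both PSME3 and PSMD5 thus lay lower under rimonabant than under vehicle and lower again under TXX-1-10, and each of the 3 steps passed its test.

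The 3 higher genes were PSMD14, PSMC2 and PSMD3, all of the regulatory particle. PSMD14 was at 19.5, 16.3 and 17.4 FPKM in rimonabant, above all 3 vehicle libraries (0.28 ± 0.07, adjusted p 0.00713). The ATPase PSMC2 was at 44.8, 43.6 and 45.0 FPKM in vehicle and 60.0, 49.1 and 49.9 in rimonabant (0.25 ± 0.08, adjusted p 0.0271). The highest rimonabant value in both was that of the length-dependent replicate 1. Without that library the PSMC2 difference was 0.16 (adjusted p 0.0656) and that of PSMD3 0.11 (adjusted p 0.0629), so that 1 member, PSMD14, was higher and 4 were lower. The PSMC2 and PSMD3 calls were also lost without any one of the vehicle libraries (adjusted p 0.0527 to 0.0856).

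TXX-1-10 against rimonabant addressed whether the modified compound differs from its parent in these genes. Of the 33 members, 23 were lower under TXX-1-10 and 1, PSMF1, was higher, beside 39.4% lower and 25.1% higher among all genes. Under TMM normalization the shares of all genes were 31.8% and 32.6%, and 19 members were lower and 1 higher. The members' median log2 difference was -0.33 (all genes -0.08), with a range of -0.79 to 0.15. This comparison shares its TXX-1-10 libraries with the one against vehicle and is not independent of it.

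PSMB2, PSMD1 and PSMC3 differed most among the members not already named for their role. The log2 differences were -0.79 ± 0.09 for PSMB2 (adjusted p 3.29e-05), -0.65 ± 0.05 for PSMD1 (adjusted p 2.9e-06) and -0.63 ± 0.09 for PSMC3 (adjusted p 0.000119). PSMB5 differed by -0.45 ± 0.10 (adjusted p 0.00246). PSMF1 was at 22.8, 21.5 and 21.4 FPKM in rimonabant, below all TXX-1-10 libraries, and its difference was 0.15 ± 0.05 (adjusted p 0.0207). That call was lost without rimonabant replicate 2 (adjusted p 0.0624), rimonabant replicate 3 (0.0776) or TXX-1-10 replicate 3 (0.0609) and with the 2 groups alone (0.0529).

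The compounds were not told apart in several members, with intervals that leave room for differences. That of PSMB6 holds the members' median difference of -0.33, and that of PSMB7 ends close to it. The 95% interval of the log2 difference was -0.32 to 0.10 for PSMB7, -0.39 to 0.10 for PSMB6 and -0.20 to 0.21 for PSME1. PSMB8, tested in 8 libraries, was higher under TXX-1-10 (0.32 ± 0.12, adjusted p 0.0414) from 7.77 and 9.28 FPKM in rimonabant to 9.07, 10.4 and 12.5, groups that overlapped. It did not pass without TXX-1-10 replicate 3 (0.19, adjusted p 0.0629), without rimonabant replicate 2 (0.20, adjusted p 0.314) or without any one of the vehicle libraries (0.32, adjusted p 0.0552 to 0.0638). In that fit 23 of 42 members were lower and 2 higher, against 33.9% and 26.7% of all genes.

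PSMC3IP, which is no proteasome subunit, differed from the subunits. Of its exon bases, 29.9% are shared with MLX, so its level is uncertain. PSMC3IP was tested in 8 libraries only. It was at 7.51, 7.19 and 8.01 FPKM in vehicle, 10.2 and 11.4 in 2 rimonabant libraries and 5.10, 4.46 and 4.71 in TXX-1-10. In the fit of 8 libraries it was higher under rimonabant (0.51 ± 0.09, adjusted p 0.000857) and lower under TXX-1-10 (-0.67 ± 0.09, adjusted p 2.23e-05), and its difference between the compounds (-1.18 ± 0.09) was past the fold call, which 4.31% of all genes met downward in that comparison.

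The genes around the proteasome, a list of 44, include ubiquitin genes, shuttle factors, the unfoldase VCP with its cofactors, and regulators of proteasome genes. Under TXX-1-10 the share of them that was lower was near that of all genes. The share that was higher was below that of all genes over 9 libraries and near it over 8. Of the 33 tested in all libraries, 14 were lower (42.4%), 7 higher (21.2%) and 12 did not pass, beside 43.8% and 30.5% of all genes. Over the 8 libraries all 44 were tested, with 16 lower (36.4%) and 14 higher (31.8%), beside 40.6% and 34.7% of all genes, and 3 met the fold call, 1 lower and 2 higher. Over the 8 libraries 7.39% of all genes met it downward and 5.28% upward.

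The regulator NFE2L1 was at 57.4, 58.4 and 58.1 FPKM in vehicle, 60.0, 65.3 and 63.0 in rimonabant and 99.0, 101 and 88.0 in TXX-1-10. All TXX-1-10 libraries lay above all others, and its log2 fold change was 0.73 ± 0.06 (adjusted p 1.76e-06), against 0.12 ± 0.06 (adjusted p 0.139) under rimonabant. DDI2, the protease that cleaves the NFE2L1 protein into its active form, was at 3.09, 3.12 and 2.96 FPKM in vehicle and 6.58, 6.54 and 5.47 in TXX-1-10. It rose past the fold call (1.02 ± 0.08, adjusted p 1.69e-07), and 15.3% of its exons are shared with RSC1A1. ZFAND2A, a stress-induced protein that binds the proteasome, was at 8.04, 8.36 and 7.56 FPKM in vehicle, 11.6 and 11.0 in 2 rimonabant libraries and 24.3, 21.9 and 26.9 in TXX-1-10. It rose by 1.61 ± 0.08 under TXX-1-10 (adjusted p 4.68e-09) and by 0.50 ± 0.10 under rimonabant (adjusted p 0.00141). Thus the regulator and its protease were higher in the same libraries in which 21 of the 33 subunit genes were lower, and the relation between them was not tested. Partners did not all rise: of the 33 tested in all libraries 14 were lower and 7 higher. The unfoldase VCP, chosen after its values were seen, fell from 80.8, 76.2 and 78.7 FPKM in vehicle to 62.6, 61.8 and 67.4 in TXX-1-10. Its log2 fold change was -0.30 ± 0.05 (edgeR adjusted p 0.000528).

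TAP2, which with TAP1 carries proteasome-made peptides into the endoplasmic reticulum, was the partner past the fold call downward. It was at 14.5, 14.0 and 14.4 FPKM in vehicle, 11.1, 11.6 and 10.7 in rimonabant and 6.47, 7.0 and 7.34 in TXX-1-10 (-1.04 ± 0.06, adjusted p 9.51e-08). Of its exon bases, 32.3% are shared with AL669918.1. The following 3 partners were chosen after their values were seen. TAP1 rose, from 6.51, 6.59 and 6.83 FPKM in vehicle to 11.1, 10.8 and 11.2 in TXX-1-10 (0.73 ± 0.06, adjusted p 2.59e-07). NGLY1, the enzyme that removes sugars from NFE2L1 and other proteins, rose from 5.02, 5.11 and 5.06 FPKM to 7.89, 7.0 and 8.07 (0.60 ± 0.06, adjusted p 3.04e-06). UCHL5, a deubiquitinase of the regulatory particle, fell from 13.1, 12.4 and 12.8 FPKM to 8.01, 7.82 and 7.90 (-0.69 ± 0.05, adjusted p 4.77e-07).

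**Figure D5:**
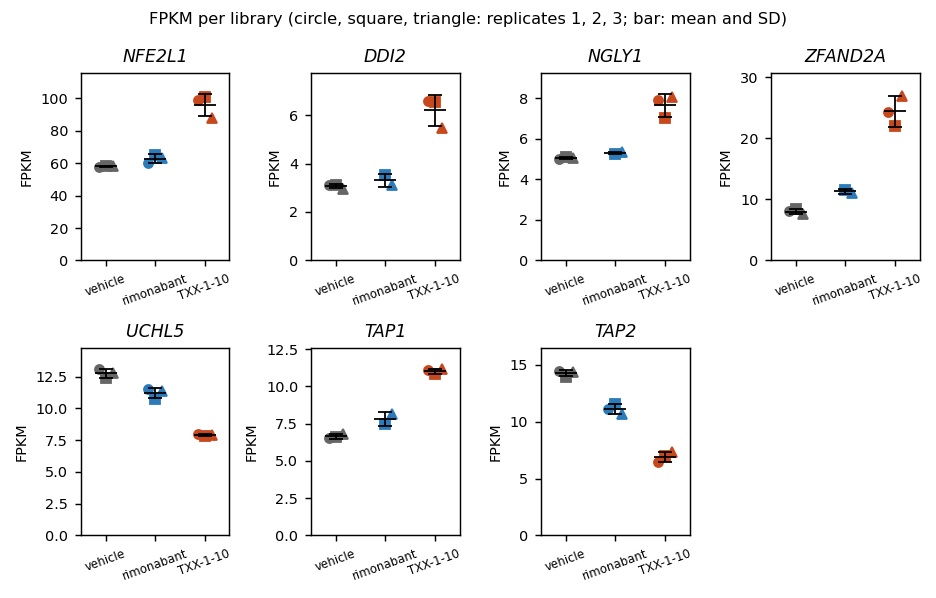
FPKM per library of 7 genes around the proteasome, from 0, with circles, squares and triangles for replicates 1, 2 and 3 and a bar for the mean and SD of the libraries in which the gene was listed. NFE2L1, DDI2, NGLY1, ZFAND2A and TAP1 are higher in every TXX-1-10 library than in any other, and UCHL5 and TAP2 are lower.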

How the data were processed

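The libraries analysed were 3 vehicle (DMSO), 3 rimonabant and 3 TXX-1-10 libraries of MDA-MB-231 RNA-seq, grouped by their labels. The authors deposited, for each library, read counts per gene and FPKM. The study's methods describe oligo(dT) selection and a NEBNext Ultra library. The submitters' processing notes name HISAT2 2.0.5 and featureCounts 1.5.0-p3, and whether counting used strand is not given in the sources used here. The deposited FPKM values equalled the counts scaled to gene length and to 1 total per library, which was recovered and used as library size (17078370 to 19277808). Gene lengths and coordinates of all 47 members equalled GENCODE 29 (GRCh38) exon unions. Each list ended within a line, and these 9 partial lines were dropped.

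Genes listed in all 9 libraries at a mean FPKM of at least 1 (4236 genes) entered 1 edgeR 4.0.16 quasi-likelihood fit (R 4.3.3) with treatment as the factor. Genes listed in the 8 libraries other than rimonabant replicate 1 (9369 genes) entered a second, wider one. P-values were adjusted by Benjamini-Hochberg over all genes of a comparison, and a gene passed at an adjusted p under 0.05 whatever its fold. Standard errors are the log2 fold change divided by the square root of F and are approximate, and 95% intervals use the test's degrees of freedom. On simulated counts with 200 genes changed by 1.5-fold between TXX-1-10 and vehicle, 200 of 200 were recovered among 4236 genes with 12 false calls, and 198 among 9369 genes with 13. Unlike the data, the simulated counts had the same dispersion for all genes, no length-dependent library and few changed genes. They therefore cannot give the rate of false calls in these libraries.

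The members and gene lists were chosen with earlier results of these data known. Values were given by library or range for catalytic and interferon-induced subunits, activators, the inhibitor, assembly factors, the 3 remaining members per comparison with the largest changes and no overlap, members that passed in no comparison, NFE2L1 and partners past a log2 fold change of 1. Alternatives were TMM, DESeq2 1.42.0 size factors and Wald test, limma 3.58.1 on log2(FPKM + 1) and log2(FPKM + 0.1), no filter and a filter at 5 FPKM, protein-coding genes only, the 2 compared groups only, a replicate block, a lowess correction on gene length (span 0.3), each library left out in turn, and both length-dependent libraries left out.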

Additional observations from a re-analysis of the deposited data

How the results depend on the processing

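Of the proteasome genes that passed with all 9 libraries, 18 of 21 (TXX-1-10 against vehicle), 3 of 6 (rimonabant against vehicle) and 19 of 24 (TXX-1-10 against rimonabant) passed in each of 23 alternatives. For TXX-1-10 against vehicle, the number higher went from 0 to 1 under TMM, DESeq2 size factors and the DESeq2 Wald test, to 4 under the length correction and to 3 with the replicate block added to it. Leaving out 1 library gave 19 to 25 lower and 0 higher. For rimonabant against vehicle, 6 were higher under the DESeq2 Wald test, 5 lower and 6 higher under the length correction, 7 lower without both length-dependent libraries, and 1 higher in the wider fit. Leaving out 1 library gave 2 to 4 lower and 1 to 4 higher, with 1 higher without any one of vehicle 1, 2 and 3 or rimonabant 1. For TXX-1-10 against rimonabant, 2 were higher under the length correction, also with the replicate block, and 0 with the 2 groups alone. Leaving out 1 library gave 19 to 27 lower and 0 to 1 higher, with 0 without rimonabant 2, rimonabant 3 or TXX-1-10 3. In the wider fit, TMM gave 1 higher and the length correction 3 higher for TXX-1-10 against vehicle, where leaving out 1 library gave 22 to 34 lower. For rimonabant against vehicle TMM gave 2 higher and the length correction 8 lower and 3 higher, and leaving out 1 library gave 3 to 10 lower and 0 to 5 higher, the most without TXX-1-10 3. For TXX-1-10 against rimonabant leaving out 1 library gave 16 to 32 lower and 0 to 2 higher. Called values that changed sign were PSMB4 (TXX-1-10 against vehicle, 0.10 under the length correction), RPS27A (rimonabant against vehicle, -0.12 without both length-dependent libraries) and ADRM1 (TXX-1-10 against rimonabant, 0.15 under the length correction and 0.15 with the replicate block). The cause of these moves was not tested.

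The labels do not say whether replicate numbers pair the samples. Correlations of same-numbered deviations were -0.06, 0.01 and -0.07 for TXX-1-10 and vehicle, -0.05, 0.04 and 0.04 for rimonabant and vehicle, and -0.79, 0.83 and -0.61 for TXX-1-10 and rimonabant. Such values cannot exclude that same-numbered libraries were handled together. The part of the length-dependent libraries, rimonabant replicate 1 and TXX-1-10 replicate 3, in the last 3 values was not tested. With the replicate block 22 members were lower and 0 higher in TXX-1-10 against vehicle, 3 and 3 in rimonabant against vehicle, and 21 and 1 in TXX-1-10 against rimonabant. The 33 members tested in all 9 libraries had at least 872 counts in each, and the 4 untested members were missing from 2 lists each.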
